A study of Rattus norvegicus and Mus musculus with 74 samples.

Results

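Ribosomal protein genes encode the proteins of the cytoplasmic ribosome, and they were followed here across 4 histone marks in the cortex of rats and mice. Members were the genes whose symbol names a protein of the large subunit (Rpl), the small subunit (Rps and Rpsa) or the acidic stalk (Rplp0, Rplp1, Rplp2), together with copies whose symbol follows the same pattern, such as Rpl10l. The rule found 82 of 20110 genes in the rat table and 82 of 23362 genes in the mouse table. These made 90 different symbols, of which 74 were in both tables. Rat members fell into 41 of the large subunit, 28 of the small subunit, 2 of the stalk and 11 paralogs, and mouse members into 42, 31, 3 and 6. Membership rested on names, while the region that stands for each gene was picked by its signal, as given below.

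The study profiled H3K4me3, H3K9Ac, H3K27me3 and H3K9me3 by chromatin immunoprecipitation and sequencing (ChIP-seq) of brain cortex. Sprague-Dawley rats were healthy controls given vehicle, animals injected before birth with VPA (valproate) and given vehicle, or VPA-injected animals given TAK-418, a compound that inhibits LSD1, the histone demethylase encoded by Kdm1a. C57BL/6J mice were healthy controls given vehicle, animals with prenatal injection of poly I:C (a synthetic RNA duplex that mimics viral infection) and vehicle, or poly I:C animals given TAK-418. Each group had 3 libraries per mark, 72 in all, and the age, sex and doses are not in the labels used here. The groups are called control, vehicle and TAK-418 below, and the vehicle group is always the exposed one. No group received TAK-418 without the exposure. The labels do not say whether the 3 libraries of a group represent different animals. The p-values therefore cover only spread among these libraries, and that spread may be technical.

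Ribosomal protein genes are transcribed in nearly every cell at a high and coordinated rate, since the ribosome needs its proteins in equal numbers. Their promoters typically lie in CpG islands, start transcription within a run of pyrimidines (C and T), and give mRNAs whose translation is controlled through that run by mTORC1 signalling. H3K4me3 and H3K9Ac mark active promoters, H3K27me3 is the Polycomb mark of silent developmental genes, and H3K9me3 marks heterochromatin. Retrotransposed copies of these genes are frequent in mammalian genomes, and a few copies have become tissue-restricted paralogs. Reads from near-identical copies cannot always be placed, so values of members with such copies are uncertain.

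The pyrimidine run was present in the annotated rat promoters. RefSeq promoters of the GRCr8 build, 250 bases before to 50 bases after the annotated start, existed on the same chromosome for 61 of the 82 rat members. The longest run of C and T touching the 5 bases on either side of the start had a median length of 10 bases in members and 3 bases in all 33465 rat promoters. It reached 8 bases in 62.3% of member promoters against 8.67% of all promoters, and 12 bases in 29.5% against 2.38%. The words CCGGAAG and GGGCGG, counted on either strand, were in 29.5% and 54.1% of member promoters and in 8.74% and 33.1% of all. The word AAGATGG was in 14.8% against 7.01%, and TATAAA in 13.1% against 14.2%. A word is only a match of letters and not a measured binding site. Sequences are shown for the 4 highest and the 4 lowest members by H3K4me3 in control rats that had such an entry on a chromosome other than 8 or 18 and whose start lay within their region. Each runs from 60 bases before to 15 bases after the start on the gene's own strand, with the pyrimidine run in capitals. The first 4 are the highest, at Rpl34 (chr2:221962269-221962343, minus strand), Rpl24 (chr11:58128391-58128465, minus strand), Rps3a (chr2:173827028-173827102, minus strand) and Rpl37 (chr2:55942885-55942959, plus strand). The last 4 are the lowest, at Rps3 (chr1:163195762-163195836, minus strand), Rpl10a (chr20:6390473-6390547, plus strand), Rpl22 (chr5:168117901-168117975, plus strand) and Rps4y2 (chr4:183000853-183000927, plus strand).
Rpl34: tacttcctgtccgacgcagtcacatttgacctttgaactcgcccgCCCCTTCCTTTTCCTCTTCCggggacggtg
Rpl24: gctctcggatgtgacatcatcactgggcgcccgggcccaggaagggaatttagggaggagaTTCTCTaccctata
Rps3a: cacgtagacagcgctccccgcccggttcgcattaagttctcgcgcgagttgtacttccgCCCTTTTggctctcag
Rpl37: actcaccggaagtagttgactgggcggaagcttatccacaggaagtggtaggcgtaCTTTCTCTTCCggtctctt
Rps3: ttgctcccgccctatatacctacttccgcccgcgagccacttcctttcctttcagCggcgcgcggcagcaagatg
Rpl10a: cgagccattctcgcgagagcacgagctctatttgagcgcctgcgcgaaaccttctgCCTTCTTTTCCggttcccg
Rpl22: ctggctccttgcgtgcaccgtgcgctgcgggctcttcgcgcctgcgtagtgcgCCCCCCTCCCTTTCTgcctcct
Rps4y2: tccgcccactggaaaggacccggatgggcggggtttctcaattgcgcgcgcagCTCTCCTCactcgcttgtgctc
The runs measured 20, 6, 7 and 11 bases in the 4 highest members and 1, 11, 15 and 8 bases in the 4 lowest. As counted, long runs stood at both ends of the H3K4me3 order. The value of 1 base at Rps3 depends on the window, since a longer run of C and T lies just upstream of it.

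For each merged region, the tables hold the mean and the highest signal of each library and a flag for a called interval. Of the regions listed with a gene, the one with the highest average signal across the species was taken. The annotated start lay within the region for 74 of 82 rat members (90.2%, against 65.9% of all rat genes) and for 69 of 82 mouse members (84.1%, against 68.7%). A CpG island lay in the region of 78 rat members (95.1%, against 68.1% of all genes) and of 81 mouse members (98.8%, against 69.7%). Member regions were 2199 to 339199 bp long in rats (median 17599 bp, all genes 11999 bp) and 399 to 359199 bp in mice (median 25599 bp, all genes 15799 bp). They often held several genes: only 9 rat and 5 mouse members had a region to themselves, and 20 and 29 shared theirs with at least 4 other genes, which made 5 or more listed. Rpl3l and Rps2 shared 1 region in rats.

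Of the tissue markers, the neuronal genes had H3K4me3 intervals in all 9 libraries for 5 of 5 genes in mice and 4 of 5 in rats. Astrocyte and oligodendrocyte genes had them for 4 of 4 each in both species, microglial genes for 3 of 4 in rats and 1 of 4 in mice, and the 2 measured genes of other tissues for 0 of 2 in both. Those 2 were Alb and Krt5 in rats and Myh4 and Krt5 in mice. Rat Alb still had H3K4me3 intervals in 5 of 9 libraries, at a control mean of 4.68. Pearson correlations between replicate libraries of 1 group ran from 0.155 to 0.993 over all regions, and no library pair was a copy of another (at most 0.414% identical values). The lowest were those of mouse H3K9me3, at 0.155 to 0.441 among vehicle and 0.361 to 0.886 among TAK-418 libraries. The mean signal carries no read counts, so library depth is unknown. A change in bulk cortex cannot tell fewer marked cells from less mark per cell.

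Nearly all members had a region with both active marks. In regions that hold several genes, an interval or a change of any mark need not lie at the ribosomal protein gene. H3K4me3 intervals were called in 9 of 9 libraries at 78 rat members (95.1%, against 72.8% of all genes) and 75 mouse members (91.5%, against 71.3%). H3K9Ac intervals were called in 9 of 9 libraries at 75 rat members (91.5%, against 71.2%) and 74 mouse members (90.2%, against 63.3%). In control rats the median member ranked at percentile 66.2 ± 1.03 (SD, n = 3) of all genes for H3K4me3 and at 69.6 ± 0.46 for H3K9Ac. In control mice the median ranked at 68.3 ± 1.73 and 74.9 ± 0.441 (SD, n = 3). For H3K27me3 the medians were 45.7 ± 4.74 in rats and 49.6 ± 1.31 in mice, and for H3K9me3 49.6 ± 8.95 and 52.2 ± 5.95 (SD, n = 3 each), close to the middle of all genes. Ranked among genes with an interval of the mark in at least 3 libraries, the median member stood at 57.1 and 57.6 for H3K4me3 and at 31.2 and 18.6 for H3K9me3 in rats and mice. The highest signal within the region, in place of the mean, put it at percentile 73.8 for H3K4me3 in rats and 82.2 in mice.

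Levels of the active marks differed widely among members. The H3K4me3 mean signal in control rats had a median of 16.0 over members, with a range of 0.667 to 33.2. Its highest members were Rps12l2 (33.2 ± 11.7, SD, n = 3), a copy of Rps12, Rpl7 (32.9 ± 6.84), which has many retrocopies, Rpl34 (31.9 ± 2.95) and Rplp1 of the stalk (30.6 ± 1.07). Library values overlapped among these 4, so their order is not resolved. The lowest were Rps10l1 (0.667 ± 0.577), Rpl5l1 (1.10 ± 0.10), Rps4x (1.12 ± 0.200) and Rpl7a (1.53 ± 0.214), each with no H3K4me3 interval in any library. The Rps4x region lay on chromosome 4, while its RefSeq entry lay on another chromosome, and the Rpl7a region was centred 11496 bp upstream of the start. Those values therefore do not describe the promoters of these core genes. The Rpl5l1 region also lay on another chromosome than its RefSeq entry.

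In control mice the H3K4me3 median over members was 12.3 and the range 1.38 to 122. Rpl7a, a core protein of the large subunit, held the highest control mean of any gene in the table, at 191.8, 92.3 and 81.8 in the 3 control libraries. Its region (chr2:26910400-26911199, mm10) spanned only 799 bp and was centred 8 bp upstream of the start, and no H3K4me3 interval was called there. Rps9 (40.7 ± 18.1, SD, n = 3, in a 399-bp region) and Rpl12 (29.2 ± 15.0) followed, with intervals in 0 and 2 of 9 libraries and the Rps9 region centred 9442 bp upstream of the start, and then Rpl24 (25.2 ± 11.6, intervals in 9). Of the 46889 mouse regions without an H3K4me3 interval, 8 had a control mean over 20, and 0 of 57195 such rat regions did. The mouse Rpl7a region also had the next highest H3K9me3 of mouse members after Rpl39l and Rpl10l (3.02 ± 0.641, interval in 1 of 9). The lowest mouse members were Rpl10l (1.38 ± 0.325), Rpl39l (1.76 ± 0.310), Rpl41 (2.89 ± 1.34), whose region was centred 13069 bp downstream of the start, and Rps21 (3.26 ± 1.01, in a 253199-bp region).

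**Figure D1:**
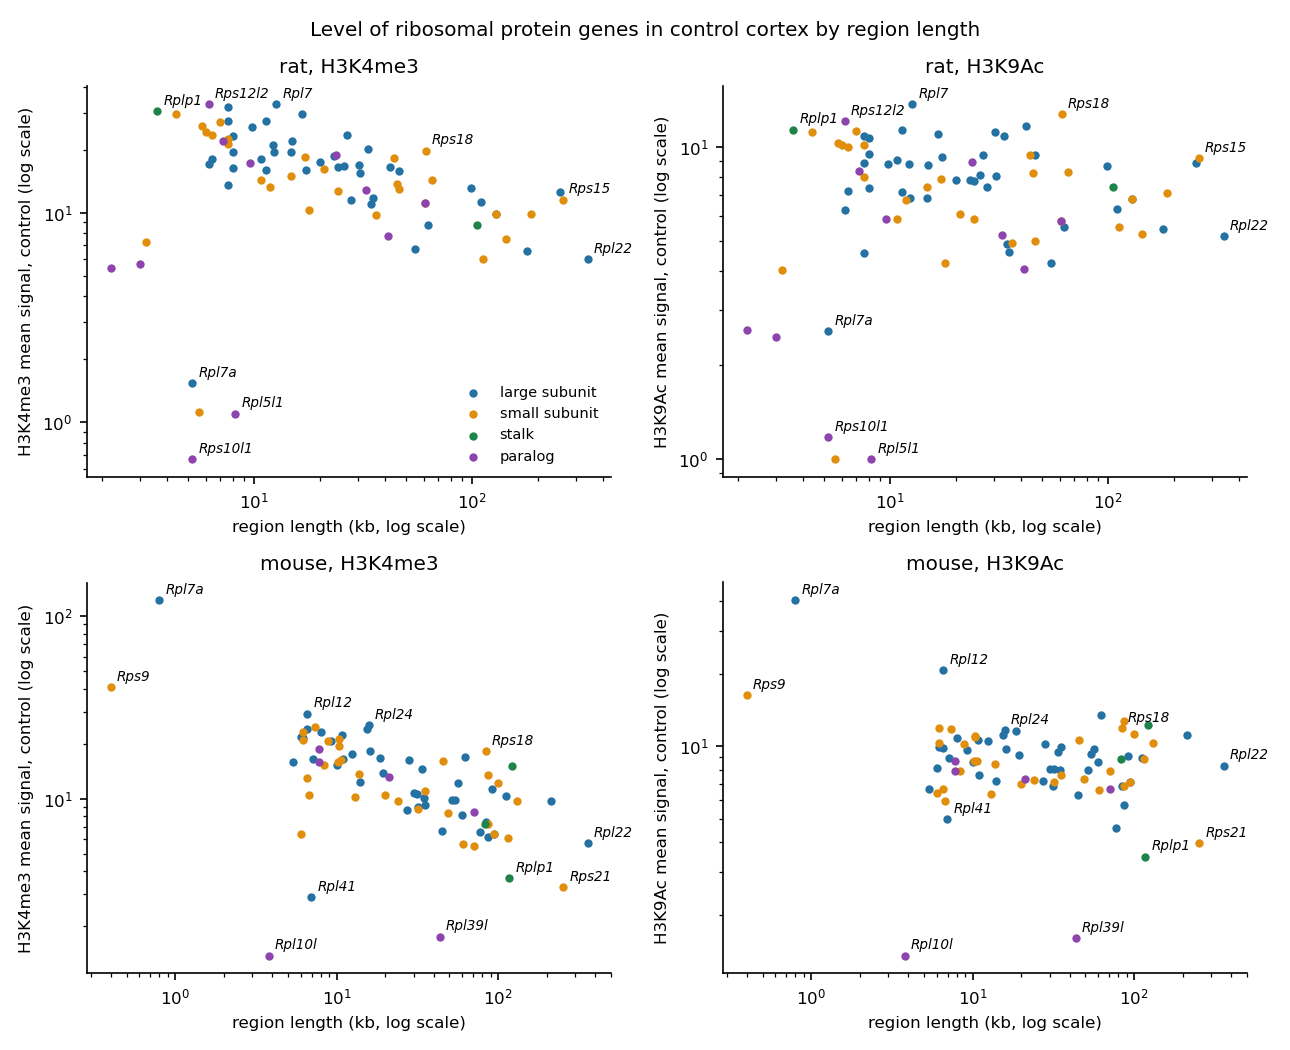
Mean signal in control libraries (vertical axis, log scale) against region length in kb (horizontal axis, log scale) for each ribosomal protein gene, with points coloured by role. H3K4me3 falls with region length in both species, and the members with the lowest levels in rats (Rpl7a, Rpl5l1, Rps10l1) lie in short regions.

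Across members, H3K4me3 in controls and region length had a Spearman rho of -0.40 in rats and -0.61 in mice (n = 82 genes each), and across all genes -0.05 and -0.04. For H3K9Ac the members gave -0.10 and -0.12. The highest signal instead went with length at 0.51 and 0.41 across members. Genes are not independent replicates, and a mean over a long region includes stretches without the mark, so both values are descriptions. Rplp1 shows the difference between the measures: its mean was 30.6 in a 3599-bp rat region and 3.68 in a 117799-bp mouse region, and its highest signal was 107.3 and 127.3. The tables were made separately and the H3K4me3 antibody lots differed between species, so these levels are set side by side only.

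H3K9Ac followed H3K4me3 across members (Spearman rho 0.84 in rats and 0.74 in mice, n = 82 genes, against 0.94 and 0.88 over all genes, in separate libraries of the same tissue). In control rats the highest were Rpl7 (13.8 ± 1.90, SD, n = 3), Rps18 of the small subunit (12.7 ± 2.44), Rps12l2 (12.1 ± 2.76) and Rpl29 (11.7 ± 2.03). The lowest were Rps4x (1 in each library), Rpl5l1 (1 in each library), Rps10l1 (1.18 ± 0.0191) and Rps4y2 (2.47 ± 0.311). The Rps4x and Rpl5l1 regions are those on another chromosome than their RefSeq entries. In control mice Rpl7a (40.3 ± 14.3), Rpl12 (20.6 ± 5.43), Rps9 (16.3 ± 6.11) and Rpl18 (13.5 ± 3.21) were highest. No H3K9Ac interval was called at Rpl7a, Rpl12 or Rps9 in any library, so these were not tested. Rpl18 had intervals in 9 of 9. Rpl10l (1.35 ± 0.225), Rpl39l (1.60 ± 0.232), Rplp1 (3.48 ± 0.469) and Rps21 (3.97 ± 0.543) were lowest.

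H3K9me3 was highest at a few paralogs. Rps4y2, a copy related to Rps4x, had the highest H3K9me3 of the rat members, at 2.81, 6.57 and 4.51 in the control libraries, with intervals in 6 of 9. Rpl10l, an intronless copy of Rpl10 known from testis, followed (2.60 ± 0.516, SD, n = 3, intervals in 5 of 9). The regions of Rpl5l1 (2.26 ± 0.370, intervals in 7 of 9) and Rps10l1 (2.00, intervals in 5 of 9) carried H3K9me3 intervals with no active mark. The Rpl5l1 region lay on another chromosome than its RefSeq entry, so its values may not describe that promoter. In mice Rpl39l, a testis-enriched copy of Rpl39, had 8.75, 3.57 and 2.77 in the control libraries (intervals in 8 of 9), and Rpl10l had 5.88, 2.70 and 2.61 (intervals in 4 of 9). The paralogs Rps27l and Rpl22l1, which are broadly expressed, had H3K4me3 in 9 of 9 libraries in both species and H3K9me3 intervals in at most 1 of 9. The rat H3K9me3 median over the 11 paralogs was 2.00 and that over the 41 large-subunit members 1.66, which is a description of lists of unequal size.

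**Figure D2:**
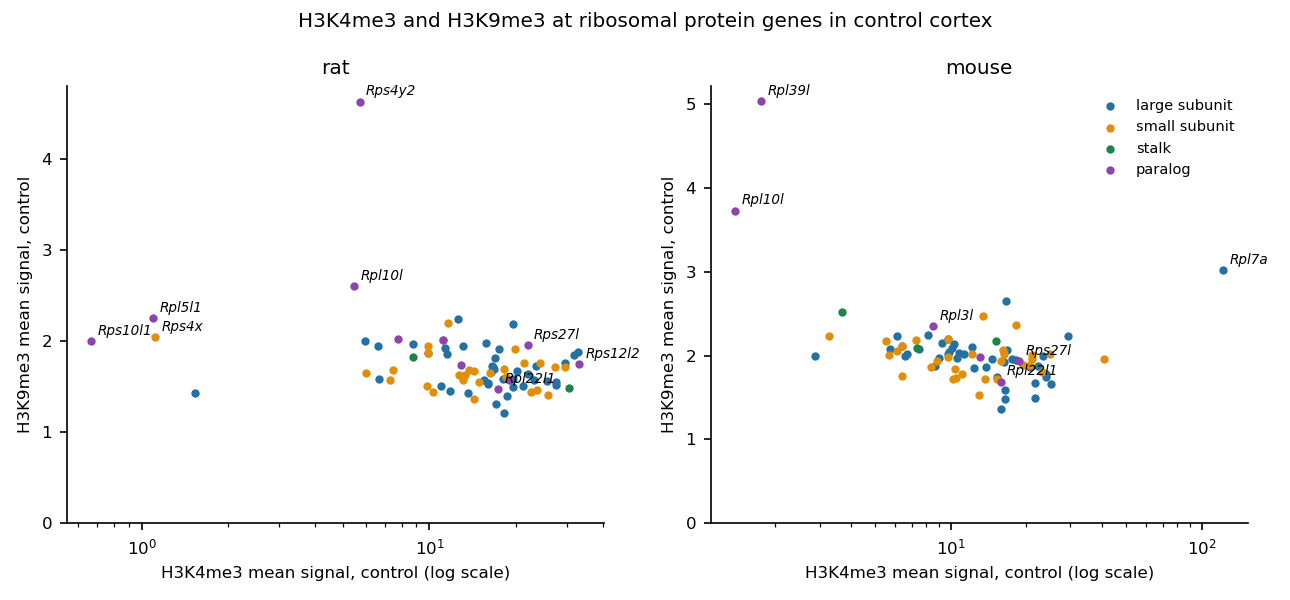
H3K9me3 mean signal (vertical axis) against H3K4me3 mean signal (horizontal axis, log scale) in control libraries, 1 point per ribosomal protein gene, coloured by role. Rps4y2 in rats and Rpl39l and Rpl10l in mice stand above the other members on the H3K9me3 axis.

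H3K27me3 at members was found in long regions that hold several genes. Intervals were called in at least 3 of 9 libraries at 27 rat members (32.9%, against 38.9% of all genes) and 23 mouse members (28.0%, against 33.1%), and each of these also had H3K4me3 intervals in at least 3. Their regions had a median length of 60599 bp in rats and 84799 bp in mice, against 10799 and 12399 bp for the other members, and 24 and 21 of them listed 3 or more genes. A signal in such a region need not lie at the ribosomal protein gene. The relation to length was not particular to members. The H3K27me3 control mean and region length had a Spearman rho of 0.61 in rats and 0.72 in mice across members. Across all genes it was 0.43 and 0.51. The highest rat members were Rpl28 (9.58 ± 4.04, SD, n = 3), Rps27l2 (9.06 ± 3.95) and Rps15 (8.61 ± 3.63). In mice they were Rpl13a (7.80 ± 1.75), Rpl10a (7.42 ± 1.74) and Rps21 (7.32 ± 1.90).

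Comparisons between groups were made within each mark and species with limma on log2(mean signal + 1), for genes with an interval in at least 3 of 9 libraries, with Benjamini-Hochberg adjustment over all genes tested and a threshold of 0.05. The vehicle group enters the comparisons with control and with TAK-418, so the changes of these comparisons are not independent of each other. Of the 24 comparisons, 7 called at least 1 member as deposited. Counts from alternative fits that stand without a share of all genes are of members only. They show how far a count depends on the fit, and are not a result about the members.

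As deposited, the H3K9Ac signal at ribosomal protein genes was higher in VPA-exposed rats, and so was that at nearly every gene. Library medians over tested members were 8.86, 7.30 and 7.39 in control rats, 17.5, 19.1 and 10.7 in vehicle rats, and 11.5, 12.9 and 8.99 in TAK-418 rats. The vehicle libraries lay above the controls without overlap, with 1 vehicle library well below the other 2. Of 77 tested members (75 regions), 74 rose and 0 fell, against a background of 96.5% of the 15368 genes tested. Groups did not overlap at 75 members, against 94.3% of all genes. The median log2 change was 0.88 for members and 0.88 for all genes, so the members' share was near the background. With each library centred on its median, both medians were 0.02. Whether shifts shared by nearly all genes, here and below, came from library scaling or depth was not tested, since neither is stated. By role, 39 of 41 large-subunit, 26 of 27 small-subunit, 2 of 2 stalk and 7 of 7 tested paralog genes rose. Other genes of protein synthesis moved alike: 39 of 39 initiation factors, 11 of 11 elongation and release factors, 33 of 34 ribosome assembly factors, 13 of 13 mTORC1 genes and 65 of 67 mitochondrial ribosomal protein genes rose.

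Members differed in the size of this rise. Rps18, at the subunit interface (chr20:7489800-7551199, rn5, 61399 bp), read 15.4, 10.6 and 12.3 in controls, 36.8, 40.3 and 18.9 with vehicle, and 18.1, 21.3 and 14.7 with TAK-418. Its change from control to vehicle was 1.21 ± 0.26 (log2, SE, limma adjusted p = 0.00030). Rps15, in the head of the small subunit, read 11.0, 7.79 and 8.93 in controls and 26.8, 29.4 and 14.2 with vehicle, a change of 1.21 ± 0.26 (limma adjusted p = 0.00030). Rpl29 rose by 1.20 ± 0.26 (limma adjusted p = 0.00030), from 14.0, 10.1 and 11.0 to 33.0, 37.3 and 17.7. In each of these 3 genes the third vehicle library was the lowest of its group and still above every control.

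At the other end, 3 members did not pass the test. Rpl36a read 4.73, 4.42 and 4.56 in controls and 7.08, 7.14 and 4.49 with vehicle, so the groups overlapped (0.36 ± 0.24, limma adjusted p = 0.15). Its region on the X chromosome (chrX:105303400-105310999, rn5) was centred 14978 bp downstream of the start and holds 4 listed genes. Rps27, a zinc-finger protein of the small subunit, read 5.36, 6.31 and 5.99 in controls and 9.00, 9.89 and 6.33 with vehicle (0.43 ± 0.26, limma adjusted p = 0.093). Rpl39, which lines the exit tunnel of the ribosome and is also on the X chromosome, read 6.70, 6.39 and 5.70 in controls and 9.72, 10.0 and 7.31 with vehicle (0.45 ± 0.26, limma adjusted p = 0.079). In Rps27 and Rpl39 every vehicle library was above every control.

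**Figure D3:**
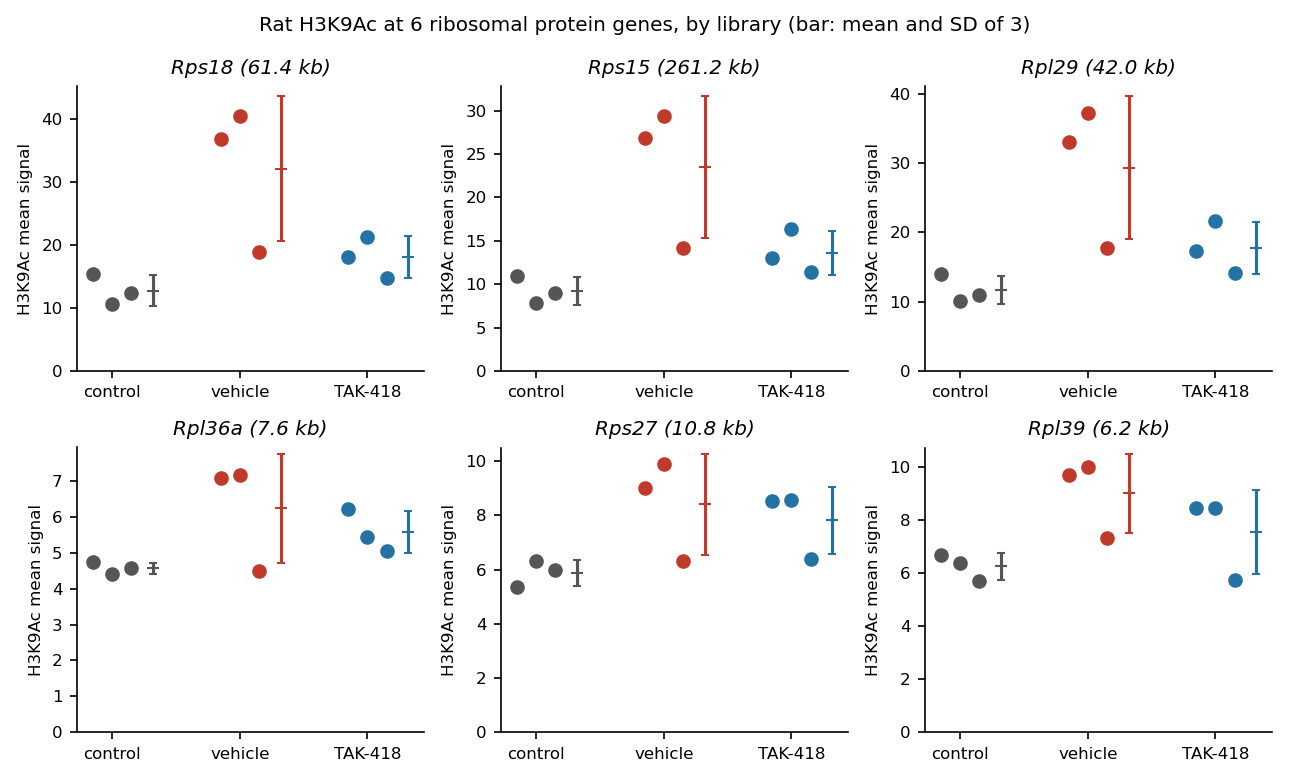
H3K9Ac mean signal in each rat library (points) for 3 members with the largest and 3 with the smallest rise from control to vehicle, with the mean and SD of 3 libraries as a bar beside each group and the region length in each title. Rps18, Rps15 and Rpl29 rise further with vehicle than Rpl36a, Rps27 and Rpl39, and the third vehicle library is the lowest of its group in all 6.

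Scaling to the other genes changed these calls. With each library centred on its median, 12 members were called higher and 7 lower in vehicle than in control rats, against backgrounds of 11.9% and 10.6% of all genes. Quantile normalization called 0 members, against 0.735% of all genes. There, 27 members and 4911 of all 15368 genes had an unadjusted p under 0.05 (limma). The 7 lower were Rpl36a (-0.50 ± 0.09, limma adjusted p = 0.010), Rps27 (-0.43 ± 0.10, adjusted p = 0.020), Rpl39 (-0.40 ± 0.09, adjusted p = 0.020), Rpl37, Rps26, Rpl4 and Rps15a. The 12 higher were led by Rps18 (0.35 ± 0.09, limma adjusted p = 0.027), Rps15 (0.35 ± 0.08, adjusted p = 0.021) and Rpl29 (0.35 ± 0.09, adjusted p = 0.025). Median region length was 102399 bp for the 12 and 10799 bp for the 7. Across the 77 tested members, the change and region length had a Spearman rho of 0.51, and across all 15368 genes 0.28. Members in regions under 10000 bp (22) had a median centred change of -0.07 and those over 50000 bp (18) of 0.19, against -0.02 and 0.14 for all genes of those lengths. The part of region length in the difference between members was not tested.

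With TAK-418, H3K9Ac at rat members as deposited lay between the vehicle and control levels. Against vehicle, 1 of 77 members was called as deposited, Rps18, which fell by 0.74 on the log2 scale (SE 0.26, limma adjusted p = 0.050), against a background of 10.4% of all genes called lower. The TAK-418 and vehicle libraries of Rps18 overlapped. Next in size were Rps12l2 (-0.70 ± 0.26, limma adjusted p = 0.055) and Rps15 (-0.69 ± 0.26, limma adjusted p = 0.056). The median change was -0.45 for members and -0.52 for all genes, and 55 of 77 members lay above the median of all genes. Leaving out the third vehicle library raised the count from 1 to 74 members lower, leaving out the second TAK-418 library gave 2, and leaving out any other library, or fitting these groups alone, gave 0. Scaling turned this direction: centred on library medians, 11 members were called higher and 0 lower than in vehicle rats, against 9.21% of all genes higher, and all 11 had a change below 0 as deposited, from -0.32 (Rps24) to -0.083 (Rps27). Quantile normalization called 7 higher and 0 lower, against 3.14% of all genes higher. The 11 were led by Rps27 (0.43 ± 0.10, limma adjusted p = 0.014), Rpl36a (0.39 ± 0.09, adjusted p = 0.013) and Rpl4 (0.36 ± 0.06, adjusted p = 0.0046), followed by Rpl37a, Rps12, Rpl26, Rps26, Rpl37, Rps15a, Rpl31 and Rps24. Median region length of the 11 was 11399 bp. These values share the vehicle libraries with those of the comparison before.

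Against control, 0 of 77 members were called with TAK-418 (limma, 10 members and 1445 of 15368 genes at an unadjusted p under 0.05), with 0 of all genes called. The members' median change was 0.43 and that of all genes 0.36, and 56 of 77 members lay above the latter. Groups did not overlap, higher with TAK-418, at 54 members, against 51.8% of all genes. Rpl7a (0.61 ± 0.22, limma adjusted p = 0.29) and Rpl11 (0.59 ± 0.26, limma adjusted p = 0.29), which with Rpl5 binds Mdm2, had the smallest p. The Rpl7a region is the one given above that lies upstream of the start, so its value does not describe the promoter. It had H3K9Ac intervals in 5 of 9 libraries. Rpl11 read 11.6, 7.61 and 9.31 in controls, 25.1, 26.2 and 13.8 with vehicle, and 14.7, 17.6 and 12.1 with TAK-418. Leaving out the third vehicle library, which enters through the shared estimate of spread, gave 58 members higher, and the fit on the control and TAK-418 groups alone gave 40.

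**Figure D4:**
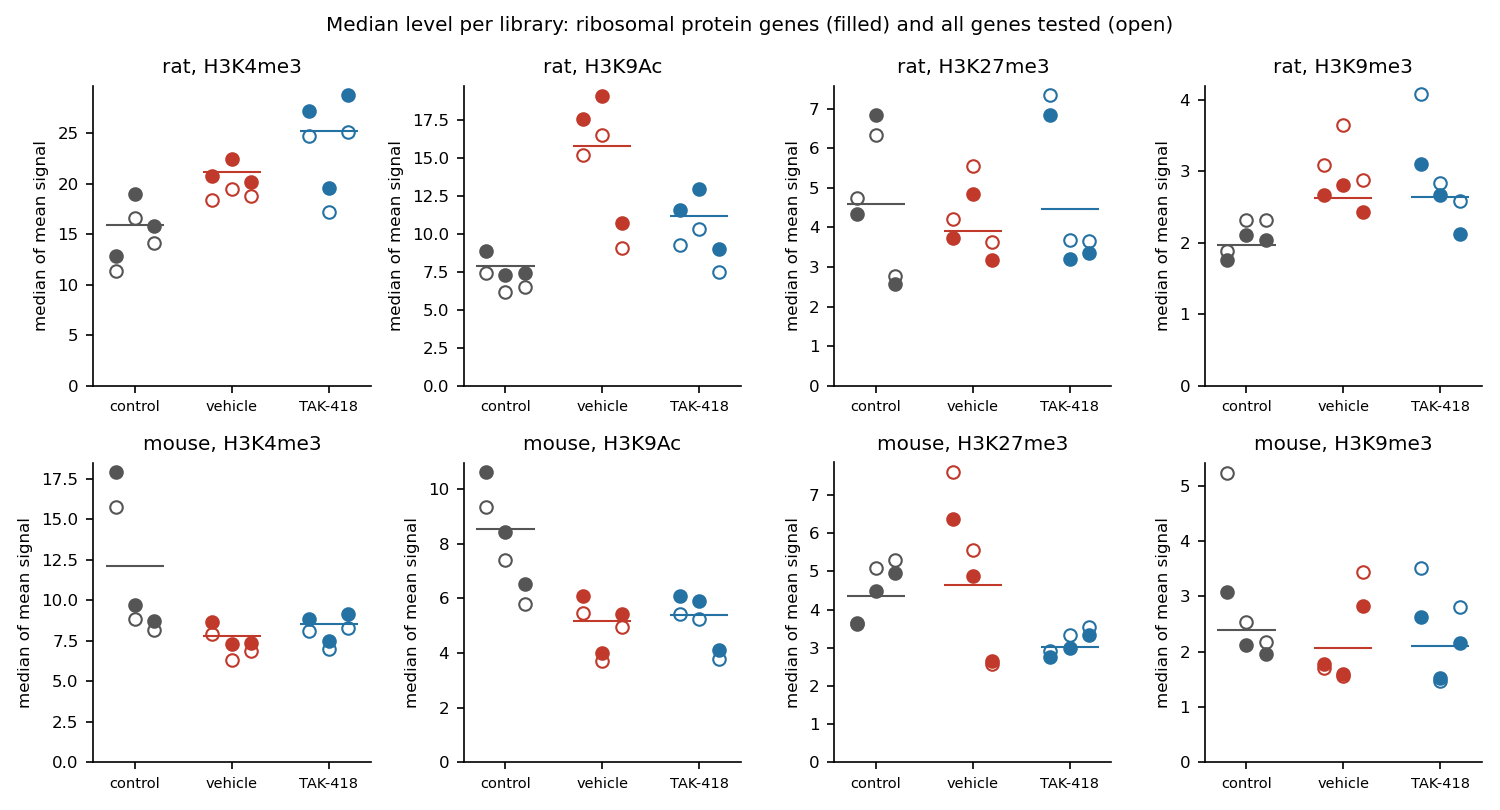
Median of the mean signal over tested ribosomal protein genes (filled) and over all genes tested (open) in each library, by species, mark and group, with a line at the mean of the 3 filled points. The members' median follows that of all genes from library to library; rat H3K9Ac is highest with vehicle and mouse H3K9Ac is highest in controls.

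As deposited, H3K4me3 at rat members was highest with TAK-418. Library medians over members were 12.8, 19.0 and 15.8 in control, 20.8, 22.5 and 20.2 in vehicle, and 27.2, 19.6 and 28.8 in TAK-418 rats. The second TAK-418 library lay below every vehicle library and close to the second control. Against control, 63 of 78 tested members (76 regions) rose with TAK-418 and 0 fell, against a background of 85.8% of all genes higher. The median change was 0.58 for members and 0.61 for all genes. By role, 30 of 40 large-subunit, 25 of 27 small-subunit, 1 of 2 stalk and 7 of 9 paralog genes rose. After centring on library medians 0 members were called (limma, 15 members and 2409 of 15287 genes at an unadjusted p under 0.05). The count as deposited fell to 39 in a fit on these groups alone, to 22 without the first control library, and to 14 and 27 without TAK-418 1 and TAK-418 3.

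Rps4y2 rose most with TAK-418. It read 4.25, 7.92 and 4.98 in controls, 8.20, 9.64 and 10.9 with vehicle, and 15.6, 11.4 and 17.7 with TAK-418, with no overlap between any of the groups. Its change from control was 1.26 ± 0.20 with TAK-418 (log2, SE, limma adjusted p = 2.6e-07) and 0.69 ± 0.20 with vehicle (limma adjusted p = 0.049). Rps4y2 has the related gene Rps4x, so reads of the pair may be shared. Rps18 rose by 0.96 ± 0.24 (limma adjusted p = 0.00092) and Rps28 by 0.87 ± 0.22 (limma adjusted p = 0.0011) with TAK-418 against control. Rps18 read 15.2, 24.7 and 19.5 in controls and 45.4, 29.3 and 43.2 with TAK-418. The smallest changes were those of Rps26, at the mRNA exit of the small subunit (0.17 ± 0.21, limma adjusted p = 0.42), Rpl37 (0.19 ± 0.24, adjusted p = 0.42) and Rpl36a (0.19 ± 0.21, adjusted p = 0.37). All 3 read below 0 after centring on library medians, without passing the test. Rps26 read 9.34, 11.3 and 10.2 in controls and 13.7, 11.1 and 10.5 with TAK-418, which overlap.

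The other H3K4me3 comparisons in rats called few members. From control to vehicle 1 of 78 was called, Rps4y2, against a background of 1.64% of all genes. Rps27l2 (0.65 ± 0.21, limma adjusted p = 0.059) and Rps18 (0.69 ± 0.24, limma adjusted p = 0.066) came next. The members' median change was 0.40 and that of all genes 0.41. The Rps4y2 call was lost without each library other than control 2 or TAK-418 2, and leaving those out gave 38 and 42 members. The fit on the control and vehicle groups alone gave 30. From vehicle to TAK-418 0 of 78 were called (limma), against 0.137% of all genes, and 3 were called without the second TAK-418 library. With all libraries, 3 members and 798 of 15287 genes had an unadjusted p under 0.05. Rps4y2 had 0.57 ± 0.20 (limma adjusted p = 0.46) and Rpl10l 0.42 ± 0.20 (limma adjusted p = 0.65).

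In mice, the H3K9Ac signal as deposited was lower at ribosomal protein genes after poly I:C. Library medians over tested members were 10.6, 8.43 and 6.54 in control, 6.08, 3.98 and 5.43 in vehicle, and 6.10, 5.92 and 4.11 in TAK-418 mice, with the controls above both exposed groups. From control to vehicle, 54 of 76 tested members (75 regions) fell and 0 rose, against a background of 67.2% of the 16663 genes called lower. By role, 31 of 40 large-subunit, 19 of 29 small-subunit, 3 of 3 stalk and 1 of 4 paralog genes fell. The median change was -0.61 for members and -0.56 for all genes. Centring on library medians called 0 members (limma, 4 members and 1176 of 16663 genes at an unadjusted p under 0.05). It took the members' median change to -0.07 and that of all genes to -0.02. The count also went to 0 when control 1, control 2, vehicle 2 or vehicle 3 was left out. Of the other genes of protein synthesis, 19 of 38 initiation factors, 5 of 12 elongation and release factors, 21 of 35 ribosome assembly factors, 9 of 12 mTORC1 genes and 47 of 74 mitochondrial ribosomal protein genes fell.

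Rps2 fell by 0.78 on the log2 scale (SE 0.27, limma adjusted p = 0.029), from 13.5, 11.7 and 8.50 in controls to 7.52, 4.28 and 6.59 with vehicle. Rps15 fell by 0.78 (SE 0.29, limma adjusted p = 0.029) and Rpl11 by 0.77 (SE 0.27, limma adjusted p = 0.029), and neither overlapped between groups. Rpl30 (-0.38 ± 0.27, limma adjusted p = 0.17) and Rps27l (-0.39 ± 0.26, limma adjusted p = 0.14) had the smallest changes beside Rplp1, which passed (-0.39 ± 0.16, limma adjusted p = 0.034). Centring on library medians turned these 3 to 0.16, 0.15 and 0.15. Rpl30 read 14.4, 7.90 and 7.23 in controls and 7.36, 6.47 and 7.11 with vehicle, so that its difference came mainly from the first control library and the groups overlapped. Rps6, the substrate of S6 kinase, read 14.4, 10.6 and 8.00 in controls and 8.12, 5.51 and 8.19 with vehicle, again with overlap. Across the 76 members the change and region length had a Spearman rho of -0.54, and across all genes -0.50, opposite in sign to the rat value.

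**Figure D5:**
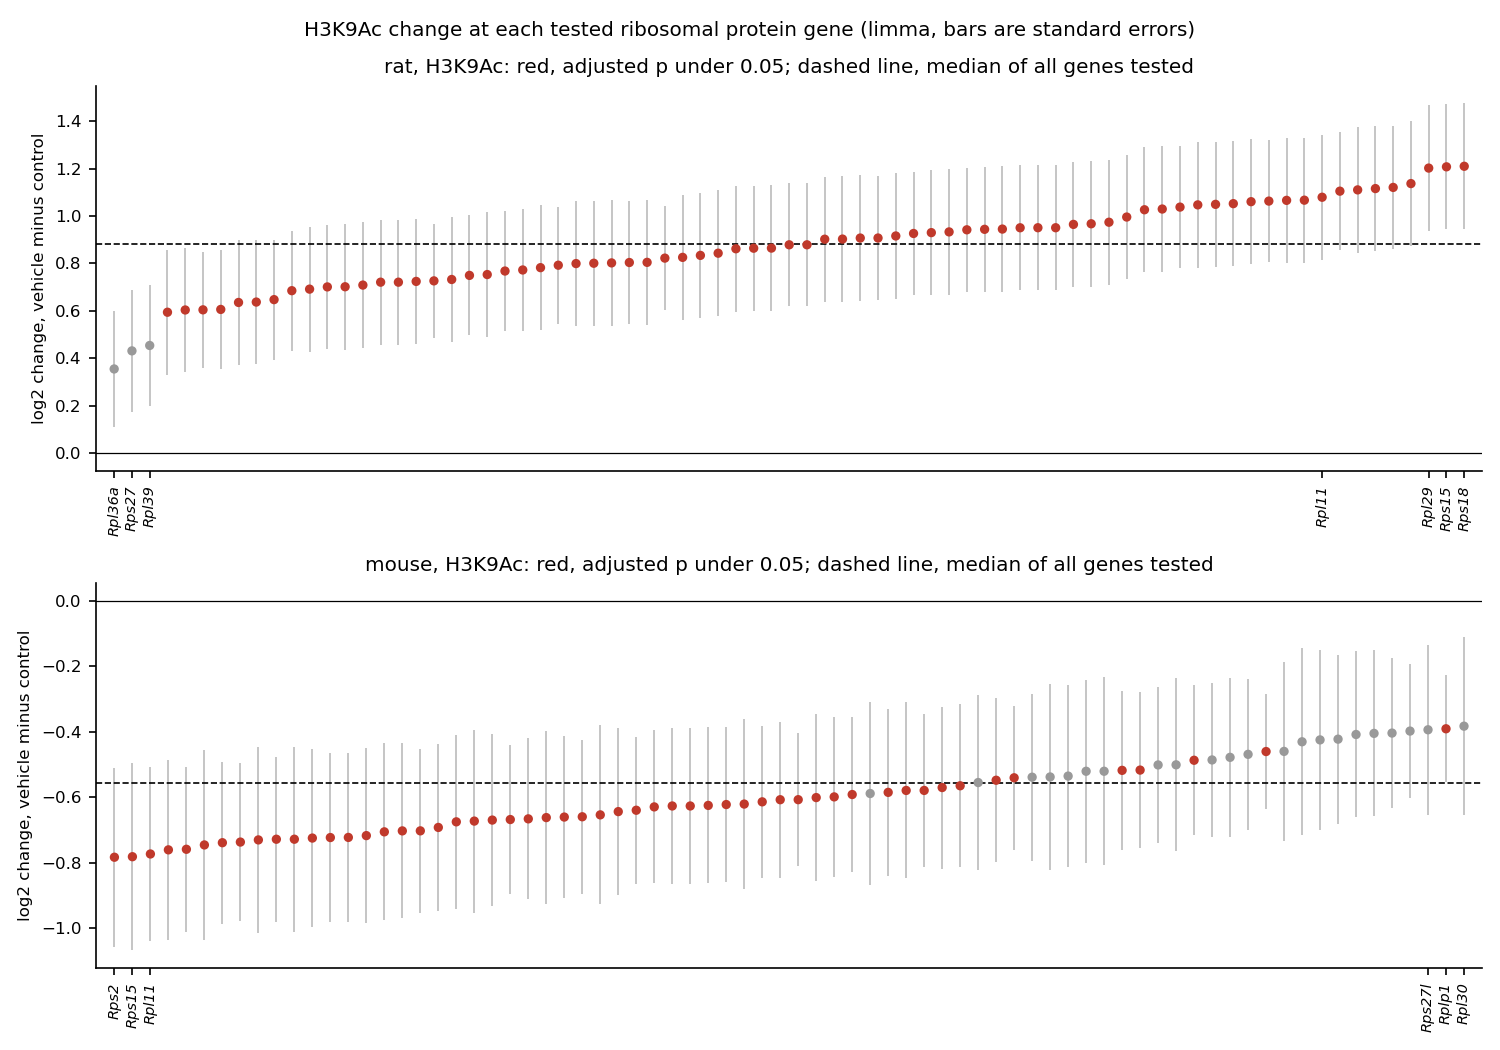
Change in H3K9Ac from control to vehicle (log2 of mean signal + 1, with its standard error) at each tested ribosomal protein gene in rats (top) and mice (bottom), in order of size, with names under some of the genes described in the text. All 77 rat changes are above 0 and all 76 mouse changes below 0, and both sets lie around the median of all genes (dashed).

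TAK-418 gave no calls for H3K9Ac at mouse members as deposited. From vehicle to TAK-418, 0 of 76 members were called for H3K9Ac (limma, 0 at an unadjusted p under 0.05), with 0 of all genes called and a members' median of 0.05. From control to TAK-418, 0 of 76 were called, again with 0 of all genes. An unadjusted p under 0.05 (limma) was found at 64 members and at 13031 of all 16663 genes. At 62 members the groups did not overlap, lower with TAK-418, against 75.4% of all genes. Rps4x, the small-subunit gene on the X chromosome (-0.68 ± 0.23, limma adjusted p = 0.052), and Rpl11 (-0.73 ± 0.27, limma adjusted p = 0.052) were nearest to the threshold. Rplp1 had -0.31 ± 0.16 (limma adjusted p = 0.068), and 0.21 after centring. Leaving out the third control library gave 75 members lower, and leaving out the second vehicle library gave 61.

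Mouse H3K4me3 gave 0 calls among 77 tested members in each of the 3 comparisons (limma), against at most 0.00573% of all genes. At an unadjusted p under 0.05 stood 28 members from control to vehicle, 0 from vehicle to TAK-418 and 5 from control to TAK-418. Among all 17446 genes these counts were 7856, 75 and 735. The first control library stood apart, with a members' median of 17.9 against 9.72 and 8.73 in the other controls. Vehicle mice had 8.68, 7.30 and 7.38, and TAK-418 mice 8.86, 7.51 and 9.18. Rps13 (-0.77 ± 0.31, limma adjusted p = 0.11) read 35.4, 20.7 and 18.4 in controls and 15.5, 11.8 and 13.4 with vehicle, without overlap. Rps15 had -0.68 ± 0.28 (limma adjusted p = 0.11). Without the third control library, 59 members were called lower from control to vehicle. From vehicle to TAK-418, Rps15 had 0.35 ± 0.28 (limma adjusted p = 0.999). From control to TAK-418, Rpl39 (-0.64 ± 0.30) and Rpl9 (-0.64 ± 0.30) had the smallest p (limma adjusted p = 0.29 for both). Across members the centred change from vehicle to TAK-418 and region length had a Spearman rho of 0.65, and across all genes 0.44.

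As deposited, H3K9me3 was higher at some rat members, in a share near the background when roles are pooled. From control to vehicle 8 of 20 tested members (18 regions) were called higher and 0 lower, against a background of 45.6% of 4986 genes. By role, 6 of 7 paralog, 2 of 6 small-subunit, 0 of 6 large-subunit and 0 of 1 stalk genes were called. The median change was 0.27 for members and 0.40 for all genes, and 3 of 20 members lay above the latter. Those 3 were paralogs, with the limit on the Rpl5l1 region given above. Rpl10l read 2.10, 2.57 and 3.13 in controls and 4.25, 5.27 and 4.49 with vehicle (0.66 ± 0.25, limma adjusted p = 0.034). Rpl5l1 read 2.01, 2.68 and 2.07 and then 3.98, 4.67 and 3.73 (0.66 ± 0.22, limma adjusted p = 0.027). Rps10l1 read 2.15, 2.14 and 1.72 and then 2.86, 3.81 and 2.49 (0.42 ± 0.14, limma adjusted p = 0.027). In all 3 the groups did not overlap. With centring on library medians 0 members were called, against 0.12% of all genes, and the change of Rps10l1 turned to -0.045. After centring, 7 members and 1538 of 4986 genes had an unadjusted p under 0.05 (limma). Rps4y2, the member with the most H3K9me3, had 0.18 ± 0.28 (limma adjusted p = 0.52), and its groups overlapped; centring turned this value to -0.29. The count of 8 went to 0 without any 1 of the 3 controls or without the first or second vehicle library, to 5 without vehicle 3 or TAK-418 2, to 15 and 17 without TAK-418 1 and 3, and to 18 in a fit on the control and vehicle groups alone.

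From control to TAK-418, 4 of 20 members were called higher for H3K9me3, against 18.1% of all genes. These were Rpl10l (0.69 ± 0.25, limma adjusted p = 0.043), Rpl5l1 (0.63 ± 0.22, limma adjusted p = 0.043), Rpl7l1 (0.35 ± 0.12, limma adjusted p = 0.038) and Rps15a (0.34 ± 0.10, limma adjusted p = 0.019). Rps4y2 had 0.11 ± 0.28 (limma adjusted p = 0.70). Centring called 0 members, against 0.742% of all genes, with 4 members and 1280 of 4986 genes at an unadjusted p under 0.05 (limma). It turned the changes of Rpl7l1, Rps15a and Rps4y2 to -0.092, -0.10 and -0.33. The count went to 0 without any 1 of the controls, without the first vehicle or the first TAK-418 library, or in a fit on these groups alone, to 1 without vehicle 3 and to 17 without TAK-418 3. From vehicle to TAK-418, 0 of 20 members were called (limma, 0 at an unadjusted p under 0.05), with 0 of all genes called. In mice 0 of 7 tested members were called in each comparison (limma, 0 at an unadjusted p under 0.05), with 0 of 4184 genes called. Replicate libraries correlated least for this mark in mice, as given above. Rpl39l read 1.80, 1.63 and 5.52 with vehicle, against the control values given above (-0.60 ± 0.62, limma adjusted p = 0.62).

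H3K27me3 gave 0 calls at the 27 tested rat and 23 tested mouse members in all 6 comparisons (limma, 0 at an unadjusted p under 0.05 in each), with 0 of 7816 rat and 0 of 7732 mouse genes called. Library medians over mouse members were 3.66, 4.49 and 4.96 in controls, 6.38, 4.87 and 2.64 with vehicle, and 2.75, 3.00 and 3.35 with TAK-418. The third vehicle library lay below every other library of the mark. Without it, 23 of 23 members were called lower from vehicle to TAK-418. Mouse TAK-418 libraries lay below all controls at 18 of 23 members, against 60.7% of all genes. Fitted on the control and TAK-418 groups alone, in place of all 3 groups, 20 of 23 were called lower. No share of all genes is given for this fit or for the fit without the third vehicle library.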

How the data were processed

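ChIP-seq libraries of frozen, formaldehyde-fixed cortex were made from 30 ug of chromatin each and sequenced on a NextSeq 500, per the labels' protocols. Reads were aligned with BWA 0.7.12 to mm10 or rn5, per the submitters' processing notes. For the peak caller, the bin width, the scaling and any use of the 2 pooled inputs, nothing is stated in the labels or headers. Per the file headers, the deposited mean and highest signal are given per merged region and library, with a flag for a called interval (60110 mouse and 72824 rat regions). Merging over libraries makes region length, and so mean signal, depend on all marks and neighbouring genes.

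Each gene took its region with the highest mean over its 36 libraries. Genes with an interval in at least 3 of 9 libraries were tested with limma 3.58.1 (R 4.3.3, trend and robust) on log2(signal + 1), with one fit per mark and species over the 3 groups and Benjamini-Hochberg adjustment. The procedure was tested on simulated data. The alternatives were a pseudocount of 0.1, no filter, median centring, quantile normalization, the 2 groups alone, the region nearest to the start, the highest signal, a replicate block and leaving out each library. Named genes were the 4 highest and 4 lowest in controls, every called member if at most 5 and otherwise the 3 largest changes in each direction, the 2 smallest p where none was called, and a few examples of roles and paralogs. Members and lists were chosen with earlier results of these data known. Promoters were chosen by rat levels, since rat sequences were at hand, in place of the mouse levels first planned. A few members that the rule would name are not reported here.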

Additional observations from a re-analysis of the deposited data

How the results depend on the processing

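Depth is unknown, and 3 libraries per group limit every test. Median percentiles moved by more than 1 SD when only genes with an interval in 3 libraries were ranked (rat H3K4me3 57.1, H3K9Ac 63.4, H3K9me3 31.2; mouse H3K4me3 57.6, H3K9Ac 65.9, H3K27me3 41.6, H3K9me3 18.6), with the highest signal (rat H3K4me3 73.8, H3K9Ac 74.7, H3K27me3 51.2; mouse H3K4me3 82.2, H3K9Ac 76.6) and with the region nearest to the start (rat H3K4me3 68.1, H3K9Ac 71.0). Counts of members called moved as follows, and the cause was not tested. Median centring gave 19 for rat H3K9Ac from control to vehicle and 11 from vehicle to TAK-418, and 0 for rat H3K4me3 and H3K9me3 from control to vehicle and to TAK-418 and for mouse H3K9Ac from control to vehicle. Quantile normalization gave 7 for rat H3K9Ac from vehicle to TAK-418, 1 for mouse H3K4me3 from vehicle to TAK-418, and 0 for rat H3K9Ac from control to vehicle and for the other comparisons at 0 under centring. Fitting the 2 groups alone gave 39 and 30 for rat H3K4me3 (control to TAK-418 and to vehicle), 40 for rat H3K9Ac from control to TAK-418, 0 from vehicle to TAK-418, 0 and 18 for rat H3K9me3 (control to TAK-418 and to vehicle), and 20 for mouse H3K27me3 from control to TAK-418. The highest signal gave 50 for rat H3K9Ac from vehicle to TAK-418, 2 for rat H3K9me3 from control to TAK-418, and 0 for rat H3K4me3 and mouse H3K9Ac from control to vehicle. No filter gave 1 for rat H3K9me3 from control to TAK-418, and 0 for rat H3K4me3 and H3K9me3 from control to vehicle and H3K9Ac from vehicle to TAK-418. A pseudocount of 0.1 gave 0 for the last, and the nearest region 2 there and 0 for rat H3K4me3 from control to vehicle.

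Whether replicate numbers pair libraries is not settled: 27 of 72 same-numbered pairs correlated above 0.1 (range -0.66 to 0.77), and in 0 sets of 1 mark and species did every pair. With 3 libraries per group these values cannot decide it, and the labels do not say. With the replicate block the counts were 73 for mouse H3K9Ac from control to TAK-418, 36 for rat H3K9Ac from vehicle to TAK-418, 1 for rat H3K9me3 from control to TAK-418, and 0 for rat H3K4me3 and H3K9me3 from control to vehicle. The block left the other 19 counts within 1.5 times.

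Leaving out 1 library gave ranges of 62 to 77 (rat H3K9Ac, control to vehicle), 0 to 74 (vehicle to TAK-418) and 0 to 58 (control to TAK-418), 0 to 42, 0 to 3 and 14 to 76 for the same comparisons of rat H3K4me3, 0 to 17 for rat H3K9me3 from control to vehicle and to TAK-418, 0 to 76 and 0 to 75 for mouse H3K9Ac from control to vehicle and to TAK-418, 0 to 59 for mouse H3K4me3 from control to vehicle and 0 to 23 for mouse H3K27me3 from vehicle to TAK-418.

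Some single genes changed sign with scaling. In rat H3K9Ac from control to vehicle, Rpl36a turned from 0.36 to -0.50 (centring) and -0.38 (quantile), Rps27 from 0.43 to -0.43 and -0.36, and Rpl39 from 0.45 to -0.40 and -0.35. From vehicle to TAK-418 the centred rises were -0.15 for Rpl4, -0.12 for Rpl36a and -0.083 for Rps27 as deposited. In rat H3K4me3 from control to TAK-418, centring and quantile normalization gave -0.45 and -0.45 for Rps26, -0.43 and -0.46 for Rpl37 and -0.43 and -0.42 for Rpl36a. In rat H3K9me3 from control to vehicle they gave -0.045 and -0.0079 for Rps10l1 and -0.29 and -0.45 for Rps4y2, and from control to TAK-418 -0.33 and -0.43 for Rps4y2, with -0.092 for Rpl7l1 and -0.10 for Rps15a under centring. With 1 library left out, Rps4y2 ranged from -0.072 (without the first control) to 0.42 from control to vehicle, and from -0.14 (without the first control; -0.0094 without the first TAK-418 library) to 0.35 from control to TAK-418. In mouse H3K9Ac from control to vehicle, centring and quantile normalization gave 0.16 and 0.19 for Rpl30 and 0.15 and 0.16 for Rps27l, and centring 0.15 for Rplp1, which from control to TAK-418 had 0.21 and 0.058. The highest signal gave -0.025 for Rps15 in mouse H3K4me3 from vehicle to TAK-418.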
